A study of Mus musculus with 3 samples.

Results

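Genes of DNA replication licensing and nucleotide supply were followed in macrophages that met a lipid load. The set held 10 genes chosen by symbol, Mcm2, Mcm3, Mcm4, Mcm5, Mcm6, Mcm7, Pcna, Rrm1, Rrm2 and Tyms, and all 10 were found among the 19938 genes measured. Each gene was read from a probe set that carried its symbol alone, and where several did so, as for Pcna, from the one with the highest mean. The cells were thioglycollate-elicited peritoneal macrophages of male Angptl4-/- mice of the strain C57Bl/6J, of an age that the labels do not give. One group received PBS for 6 h, one intralipid at 0.5 mM triglyceride for 6 h, and one the same intralipid for 6 h preceded by 1.5 h with recombinant mouse ANGPTL4 at 2.5 µg/mL, a secreted inhibitor of lipoprotein lipase. A preincubation is recorded for the group with ANGPTL4 only, so that step and ANGPTL4 itself cannot be told apart here. Intralipid is an emulsion of triglyceride droplets. All 3 groups lack Angptl4, and no wild-type array was analysed here. Each group was 1 array of RNA pooled from 3 samples, so the spread between cultures is unknown, no test was possible, and a gene called higher or lower is so on these arrays.

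Before a cell copies its genome, the Mcm proteins are loaded onto replication origins as a ring of 6 different subunits, a step called licensing, and the ring later becomes the motor of the replicative helicase. Pcna is the sliding clamp that holds DNA polymerases on the template. Ribonucleotide reductase, built from the large subunit Rrm1 and the small subunit Rrm2, makes deoxynucleotides, and Tyms, thymidylate synthase, makes the thymidine nucleotide. Transcription of these genes is classically driven by E2F factors as cells enter S phase, and macrophages elicited with thioglycollate are largely non-dividing in culture.

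Because E2F factors are known regulators of this set, the promoters of some members are shown first, from RefSeq on the build GRCm38.p6. They are Mcm6, which was lower with intralipid, Mcm5, which had 1 value on all arrays, Mcm2, which was higher, and Rrm1 and Pcna, which had the largest differences downward. Mcm3 and Mcm7, also lower with intralipid, are not printed, although Mcm3 (-0.38 on the log2 scale) differed by more than Mcm6 (-0.35). Each sequence gives the 200 bases upstream of the annotated start on the strand of the gene. Capitals mark the E2F motif, in the forms TTTCCCGC, TTTGGCGC, TTTGCCGC and TTTCGCGC, and the motif CCAAT, each on either strand.
Mcm6, chr1:128359706-128359905, minus strand: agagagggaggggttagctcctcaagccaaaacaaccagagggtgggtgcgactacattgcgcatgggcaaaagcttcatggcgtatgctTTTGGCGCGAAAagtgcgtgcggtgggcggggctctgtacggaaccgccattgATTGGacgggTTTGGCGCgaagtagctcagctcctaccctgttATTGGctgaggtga
Mcm5, chr8:75109309-75109508, plus strand: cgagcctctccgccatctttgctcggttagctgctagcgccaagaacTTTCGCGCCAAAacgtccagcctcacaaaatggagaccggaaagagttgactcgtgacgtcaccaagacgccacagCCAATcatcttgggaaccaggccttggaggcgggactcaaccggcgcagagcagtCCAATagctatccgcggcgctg
Mcm2, chr6:88898781-88898980, minus strand: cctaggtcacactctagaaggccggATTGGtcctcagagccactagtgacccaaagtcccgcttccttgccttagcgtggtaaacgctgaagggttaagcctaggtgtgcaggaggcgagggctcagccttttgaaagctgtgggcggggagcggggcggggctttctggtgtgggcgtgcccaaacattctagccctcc
Rrm1, chr7:102441495-102441694, plus strand: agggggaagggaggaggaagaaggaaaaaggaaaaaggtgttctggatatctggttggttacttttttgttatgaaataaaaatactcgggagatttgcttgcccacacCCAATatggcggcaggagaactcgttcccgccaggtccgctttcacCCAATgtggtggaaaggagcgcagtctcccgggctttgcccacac
Pcna, chr2:132253181-132253380, minus strand: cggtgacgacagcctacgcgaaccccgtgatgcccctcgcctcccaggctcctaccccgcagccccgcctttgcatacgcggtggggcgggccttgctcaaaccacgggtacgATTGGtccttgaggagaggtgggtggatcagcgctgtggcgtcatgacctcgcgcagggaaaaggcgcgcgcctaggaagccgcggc

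Promoter windows of 300 bases, from 250 before to 50 after the start, were given for 9 of the 10 genes. The E2F motif lay in a window of 4 of these 9 genes (4 of their 10 windows), Mcm3, Mcm5, Mcm6 and Mcm7, against 2.26% of the 32851 windows of all genes and 3.90% of the 10390 windows of genes that reached the expression floor defined below. In Mcm6 the motif matched 3 times, with 2 of the matches overlapping on opposite strands, and the 2 matches in Mcm5 overlapped likewise. In Mcm3 both matches lay just downstream of the start. The windows of Mcm2, Pcna, Rrm1, Rrm2 and Tyms held none of the 4 forms. CCAAT lay in 9 of the 10 windows (8 of the 9 genes, all but Tyms), against 37.4% of all windows and 36.7% of those of genes past the floor. A match is a match of letters, and binding was not measured.

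**Figure D1:**
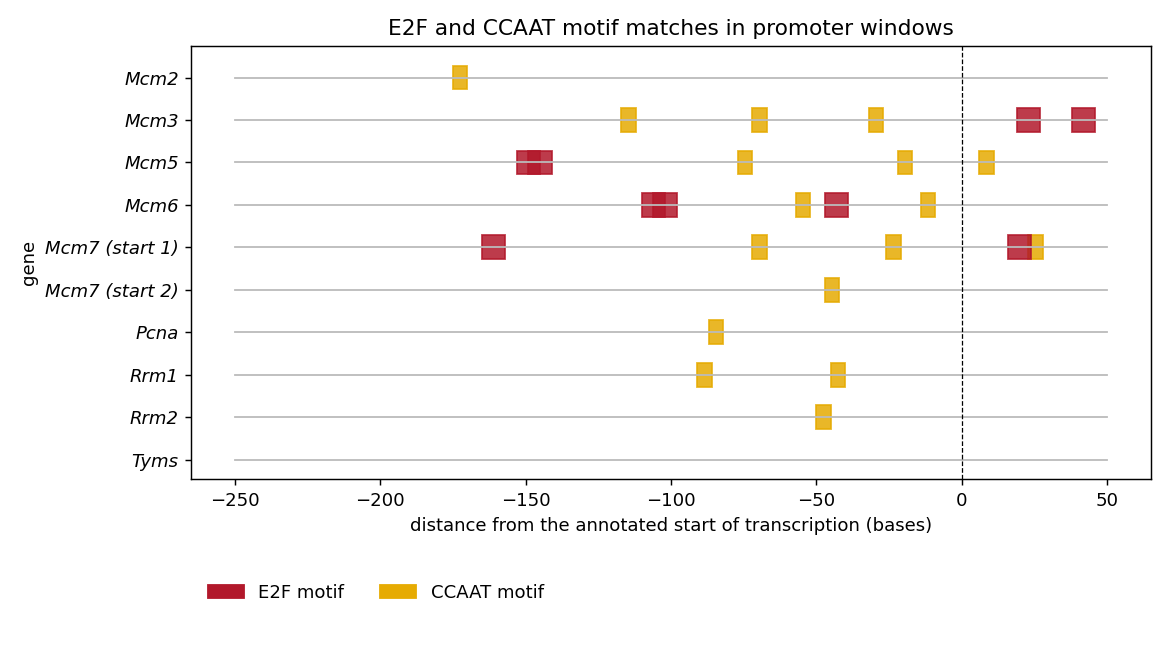
Positions of the E2F motif (red) and the CCAAT motif (yellow) in the promoter windows of 9 genes, drawn against the distance from the annotated start of transcription in bases (dashed line at 0). Mcm7 has 2 annotated starts, and the red boxes fall in Mcm3, Mcm5, Mcm6 and the first window of Mcm7 only.

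The deposited values are log2 expression values. A gene was compared between arrays where it reached an expression floor, set on each array at the median of the symbol-bearing probe sets (4.98 for PBS and 4.97 for either array with intralipid). All 10 genes reached it on every array, Tyms by a margin of only 0.03 and Rrm2 by 0.27. Angptl4 itself read 4.92 on each array, and its probes were not placed against the deletion. A log2 value depends on the probes, so levels are compared between arrays and not between genes. Many values were tied to the last deposited digit. Among the 10090 genes past the floor on at least 1 array, 2530 (25.1%) had 1 identical value on all 3 arrays and 1524 (15.1%) were tied between PBS and intralipid plus ANGPTL4 only. Some readings were also shared between different genes. Rrm2 and Dctd both read 5.24551 on all 3 arrays, and Mki67 and Cdkn2c both read 5.28305. Such a reading need not be particular to its gene. How the ties arose cannot be read from summarised values, and a difference of 0 does not show that a transcript did not move.

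The comparison of intralipid with PBS asks whether S-phase genes moved with the lipid load. Of the 10 genes, 6 were lower, 1 was higher and 3 were identical, with a median log2 difference of -0.23 (1.17-fold lower). Over all 10049 genes compared, 44.4% were lower, 23.5% higher and 32.1% identical, with a median of 0.00. At least 1.5-fold lower were Rrm1 and Pcna, 2 of 10, where 5.57% of all genes were. No member was at least 1.5-fold higher, where 5.07% of all genes were. A set of 10 genes without replicate arrays does not separate these shares from the background. The central 68% of all genes spanned log2 differences from -0.29 to 0.11, and the robust SD taken from that span was 0.20, so the median of the 10 genes lay inside the span.

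Rrm1, the reductase subunit that binds the substrate and the allosteric effectors, had the largest difference of the set. The PBS array read 8.12 (log2), the intralipid array 7.33 and the array with added ANGPTL4 8.20. The intralipid array alone was low, with a log2 difference of -0.79 from PBS (1.73-fold lower). Of the 10049 genes, 274 (2.73%) were lower by as much or more. Rrm2, the subunit that carries the tyrosyl radical and that limits reductase activity over the cell cycle, read 5.25 on all 3 arrays. The transcripts of both subunits thus gave different readings, although Rrm2 lay near the floor. Rrm2b, the alternative small subunit induced by p53, read 6.32 with PBS and 6.30 on both other arrays. Tyms read 5.01 with PBS or intralipid and 5.14 with intralipid plus ANGPTL4, and its pseudogene Tyms-ps lay far below the floor at 2.57 on each array.

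For Pcna the PBS array read 10.72, the intralipid array 10.13 and the array with added ANGPTL4 10.59. Intralipid was again the low array, with a log2 difference of -0.60 from PBS (1.51-fold lower), a difference reached or exceeded downward by 545 genes (5.42%). A second probe set with the symbol Pcna and the same accessions read 10.71 on the PBS array and was tied with the first on the other arrays. Its difference of -0.58 fell just short of 1.5-fold, so whether Pcna is counted rests on the choice between these probe sets.

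Of the 6 Mcm subunit genes, 4 read lower with intralipid than with PBS, 1 read higher and 1 was identical. Mcm3 read 7.07 with intralipid against 7.45 on both other arrays, and was 1.30-fold lower on the intralipid array. Mcm6 gave 7.47 with PBS, 7.12 with intralipid and 7.67 after ANGPTL4, 1.27-fold lower with intralipid than with PBS. For Mcm4 the intralipid array read 6.23 and both others 6.43, a difference of 1.15-fold. In these 3 genes the intralipid array was the lowest, and Mcm3 and Mcm4 were tied between the other arrays.

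Mcm7 was 6.35 with PBS and 6.09 on both arrays with intralipid, a log2 difference of -0.26 from PBS whether or not ANGPTL4 was present. Mcm5 read 5.88 on every array. Mcm2, the subunit whose tail also binds histones, went the other way, with readings of 6.71 for PBS, 7.19 for intralipid and 6.43 after ANGPTL4. It was the only member whose highest value fell on the intralipid array, 1.40-fold above PBS, and 640 genes (6.37%) were higher by as much or more. Set against the median of the other 5 subunit genes (-0.26), the difference of Mcm2 was 0.74 higher on the log2 scale, which is a ratio of 1.67 between fold changes. No replicate array checks this ratio.

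**Figure D2:**
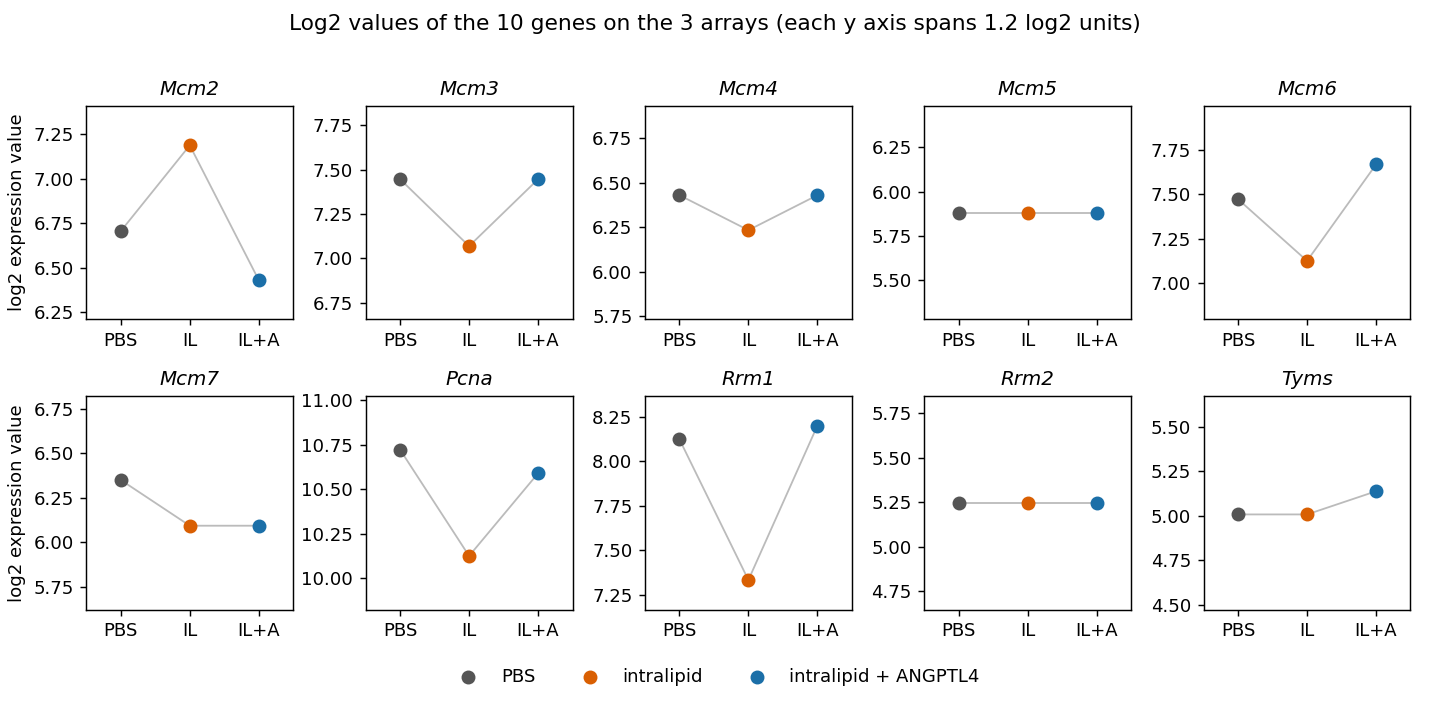
Log2 expression value (y axis, a span of 1.2 in each panel) of each gene on the arrays with PBS, intralipid (IL) and intralipid plus ANGPTL4 (IL+A), 1 array per point. Rrm1, Pcna, Mcm3, Mcm4 and Mcm6 are lowest with intralipid, Mcm2 is highest there, and Mcm5 and Rrm2 are flat.

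Whether ANGPTL4 altered these readings under the lipid load was taken from intralipid plus ANGPTL4 against intralipid alone. That comparison shares the intralipid array with the one above, so an error of that array enters both with opposite sign. With ANGPTL4, 6 of the 10 genes were higher, 1 was lower and 3 were identical, with a median log2 difference of 0.16. Over all 10064 genes compared, 46.3% were higher, 23.0% lower and 30.6% identical, with a median of 0.00 and a robust SD of 0.23. Rrm1 was 1.82-fold higher, the only member at least 1.5-fold higher, where 8.26% of all genes were. Mcm2 was 1.69-fold lower, the only member at least 1.5-fold lower, where 4.95% of all genes were. For Rrm1, 349 genes (3.47%) were higher by as much or more, and for Mcm2, 364 genes (3.62%) were lower by as much or more.

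Behind Rrm1 came Mcm6 (1.46-fold higher), Pcna (1.38-fold), Mcm3 (1.30-fold), Mcm4 (1.15-fold) and Tyms (1.09-fold). Mcm5, Mcm7 and Rrm2 were identical. Against the median of the other 5 subunit genes (0.20), Mcm2 stood at -0.95 on the log2 scale.

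Against PBS, the array with intralipid plus ANGPTL4 was at most 1.21-fold apart for these genes. Their log2 differences ran from -0.28 (Mcm2) to 0.20 (Mcm6), with a median of 0.00, 3 genes higher, 3 lower and 4 identical. No member was at least 1.5-fold higher or lower, where 2.37% and 0.53% of the 9995 genes compared were. Mcm2 (1.21-fold lower) and Mcm7 (a log2 difference of -0.26) had the largest differences in size. These, Mcm6, Pcna and Tyms exceeded the robust SD of 0.10 over all genes. Only 342 genes (3.42%) were lower than Mcm2 or as low, and 386 (3.86%) for Mcm7. Rrm1 was 1.05-fold higher and Pcna 1.10-fold lower than with PBS.

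**Figure D3:**
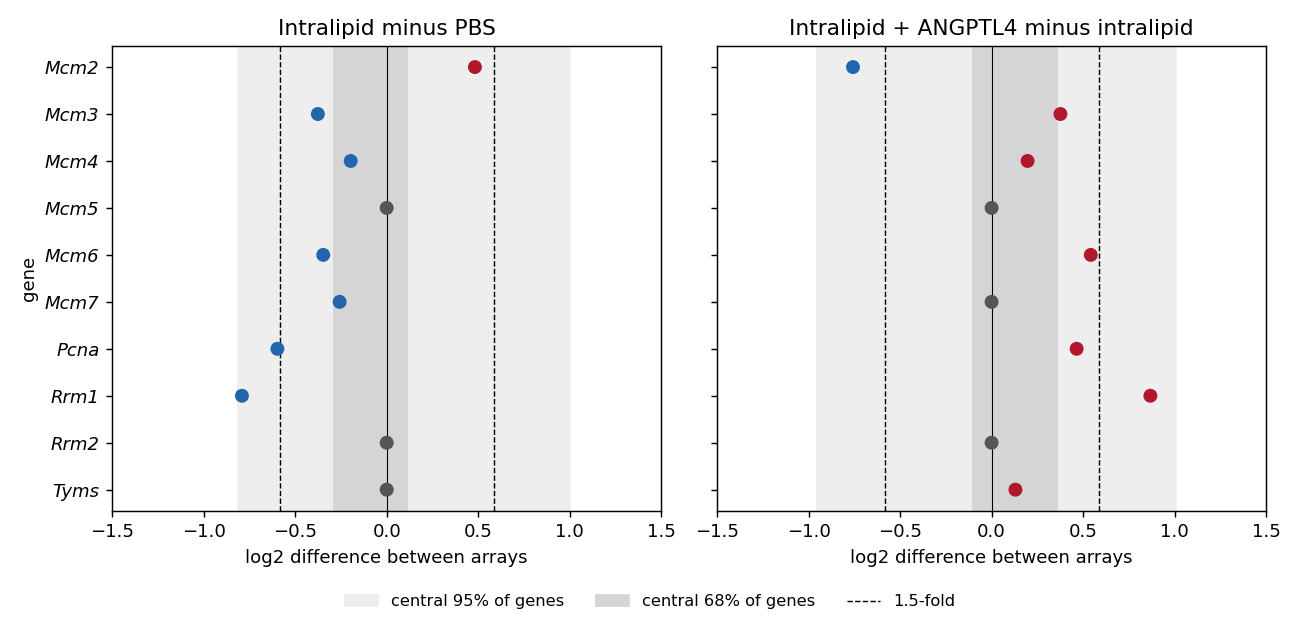
Log2 difference between arrays (x axis) of each gene for intralipid minus PBS (left) and intralipid plus ANGPTL4 minus intralipid (right), with the central 68% and 95% of all genes shaded and 1.5-fold dashed. In the left panel Rrm1 and Pcna lie past the lower line, and in the right panel Rrm1 lies past the upper line and Mcm2 past the lower one.

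Other genes of the same machinery gave a background for the members. Of all 19938 genes, 10049 reached the floor on the intralipid or the PBS array. For origin licensing and firing, 14 of 24 measured genes did. With intralipid 6 of them were lower, 2 higher and 6 identical, none by 1.5-fold, with a median of 0.00. Over all genes compared, 44.4% were lower and 23.5% higher, and 5.57% and 5.07% were so by at least 1.5-fold. Mcmbp, which binds the Mcm complex and unloads it, was 1.45-fold lower, the checkpoint scaffold Topbp1 1.38-fold, and Gins4, a subunit of the helicase cofactor GINS, 1.32-fold lower. Orc4, of the origin recognition complex, was 1.33-fold higher. Cdt1, the loader of the Mcm ring, read 8.28 on each array.

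Replisome genes were lower in 19 of 30 cases with intralipid, higher in 6 and identical in 5, with a median of -0.13. Over all genes compared, 44.4% were lower and 23.5% higher. At least 1.5-fold lower were 5 (16.7%, against 5.57% of all genes), and at least 1.5-fold higher 2 (6.67%, against 5.07%). The nuclease and helicase Dna2 read 6.74 with PBS, 5.57 with intralipid and 6.50 after ANGPTL4, and was 2.25-fold lower with intralipid than with PBS. Rpa2, of the single-strand binding complex, was 1.74-fold lower, Pole2, a polymerase epsilon subunit that fell below the floor with intralipid, 1.69-fold, and Pclaf, a protein that binds Pcna, 1.69-fold lower. The flap nuclease Fen1, the fifth of these, was 1.57-fold lower. The 2 genes that were higher, Chaf1b of the chromatin assembly factor (1.63-fold) and Pold3 of polymerase delta (1.58-fold), were lower with ANGPTL4 than without it, by 1.98-fold and 1.57-fold. Fen1, Chaf1b, Pold3 and Cdt1 were singled out after their values were seen.

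Genes of deoxynucleotide supply were lower in 7 of 12 cases, higher in 1 and identical in 4, with a median of -0.03. Over all genes compared, 44.4% were lower and 23.5% higher. Dck, which phosphorylates salvaged deoxycytidine, was 1.76-fold lower with intralipid. It was the only one at least 1.5-fold apart (8.33%, where 5.57% of all genes were at least 1.5-fold lower). Dtymk, the kinase next to Tyms in the pathway, was 1.38-fold lower, the dNTP hydrolase Samhd1 1.27-fold lower and the mitochondrial thymidine kinase Tk2 1.44-fold higher. De novo purine and pyrimidine synthesis genes were lower in 12 of 19 cases and higher in 5, with a median of -0.11. At least 1.5-fold lower were 4 (21.1%, against 5.57% of all genes), and at least 1.5-fold higher 1 (5.26%, against 5.07%). Umps, which makes UMP, was 1.97-fold lower, and the purine enzymes Gart and Atic were 1.70-fold and 1.63-fold lower. Ppat, which catalyses the committed step of purine synthesis and was added here after its values were seen, was 1.53-fold lower. Mthfd2, a mitochondrial folate enzyme and known ATF4 target, ran opposite with 6.67, 8.35 and 6.83 on the arrays in the usual order, 3.20-fold higher with intralipid than with PBS.

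Among E2F, RB and cyclin genes, 15 of 25 were lower with intralipid, 4 higher and 6 identical, with a median of -0.14. At least 1.5-fold lower were 3 (12.0%, against 5.57% of all genes), and at least 1.5-fold higher 1 (4.00%, against 5.07%). At any size, 44.4% of all genes compared were lower and 23.5% higher. Cdc25a, the phosphatase that activates Cdk2, was 1.81-fold lower, Cdk2 1.61-fold lower and the pocket protein Rbl2 1.51-fold lower. Myc was 6.53 with PBS, 8.12 with intralipid and 6.69 after ANGPTL4, 3.02-fold higher with intralipid than with PBS.

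Markers of dividing cells lay mostly below or close to the floor. Of all 19938 genes, 10049 reached it on the PBS or the intralipid array. Of 33 measured G2 and mitosis genes, 13 reached the floor, 7 of them lower with intralipid, 2 higher and 4 identical, with a median of -0.02. Over all genes compared, 44.4% were lower and 23.5% higher. Mki67, the standard proliferation marker, read 5.28 on every array, close to the floor. Cenpa, the centromeric histone, was the only one at least 1.5-fold apart, 1.66-fold higher with intralipid (7.69%, against 5.07% of all genes). Aurka (1.24-fold), Nuf2 (1.46-fold, below the floor with intralipid) and Ect2 (1.15-fold) were lower. Mki67 was singled out after its values were seen.

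Replication-dependent histone genes, whose transcripts normally accumulate in S phase, differed upward and by more. Over all 26 measured, with no floor, 21 were higher with intralipid than with PBS, 1 was lower and 4 were identical, with a median of 0.72. At least 1.5-fold higher were 16, where 2.68% of the 19938 genes were with no floor. H1f3, H2bc18, H3c15, H3c4 and H4c3 reached the floor on the intralipid array and not on the PBS array, so in any count over genes past the floor their direction is fixed. H4c9 read 5.69 with PBS, 8.98 with intralipid and 5.68 after ANGPTL4, and H1f2 read 8.63, 11.31 and 8.02. H3c4 read 4.44, 7.30 and 4.13, and H1f3 3.56, 6.39 and 3.39. The intralipid array held the highest readings of these 4 histone genes and the lowest of Rrm1 and Pcna.

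For intralipid plus ANGPTL4, the same lists were read against intralipid alone. Licensing and firing genes were higher in 8 of 15 cases (median 0.11), replisome genes in 19 of 30 (0.13) and deoxynucleotide supply genes in 6 of 12 (0.02). Purine and pyrimidine synthesis genes were higher in 13 of 19 cases (median 0.11), E2F, RB and cyclin genes in 14 of 25 (0.06) and G2 and mitosis genes in 8 of 13 (0.07). Over all genes compared, 46.3% were higher, with a median of 0.00. Of all 26 histone genes, with no floor, 21 were lower, 1 was higher and 4 were identical, with a median of -0.97. At least 1.5-fold lower were 19, where 2.65% of the 19938 genes were with no floor.

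**Figure D4:**
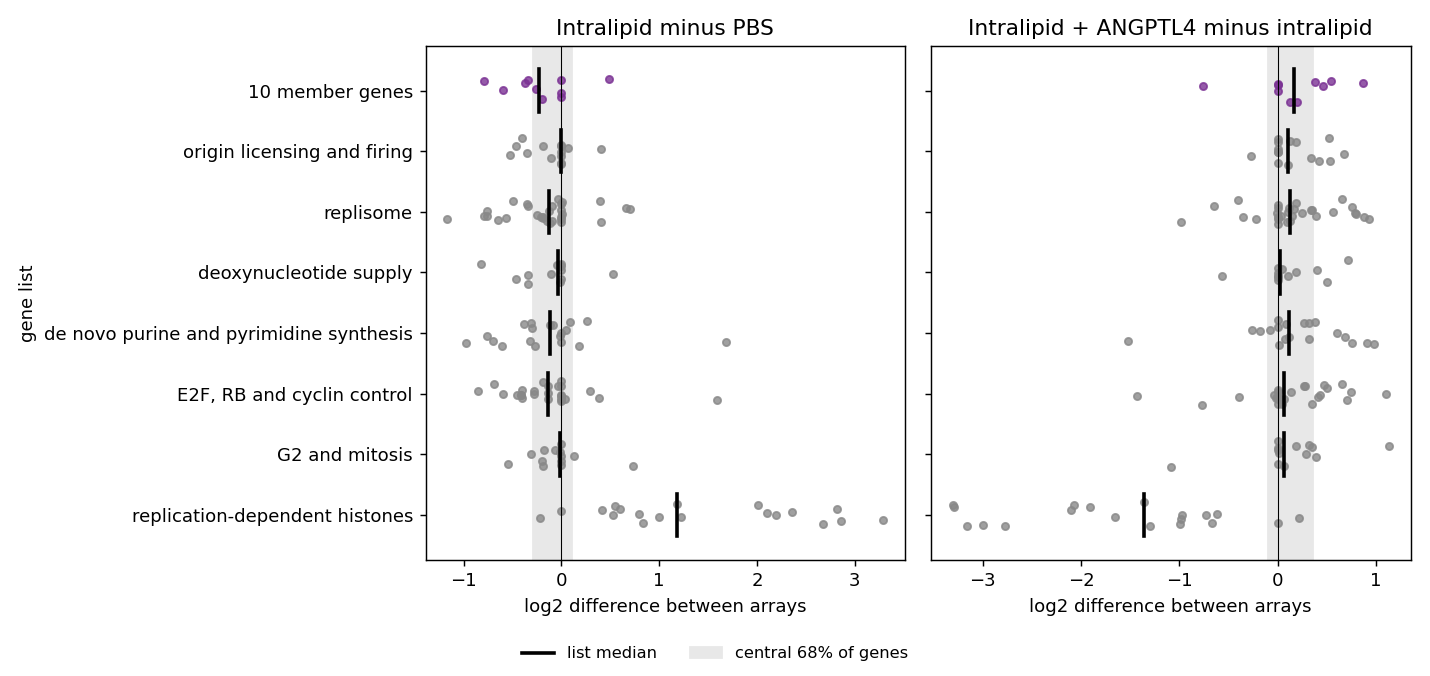
Log2 difference between arrays (x axis) of every gene past the floor in the 10-gene set and in 7 related lists, for intralipid minus PBS (left) and intralipid plus ANGPTL4 minus intralipid (right), with list medians as bars and the central 68% of all genes shaded. Medians of the members and of 6 lists lie inside the shaded band, and the histone list lies at 1.18 and -1.36 over its genes past the floor, of which 5 passed on the intralipid array and not on the PBS array.

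The genes whose differences from PBS lay nearest to those of a member were sought among 10080 other genes. For Rrm1 they were Spryd4, Uqcc3 and ND3, at Euclidean distances of 0.00, 0.02 and 0.02 on the log2 scale. Those nearest to Pcna were Tmem168, Sidt2 and Cebpzos, at 0.02 each. Within a distance of 0.1 lay 58 genes for Rrm1 and 58 for Pcna, and with only 3 arrays such nearness is common.

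Markers of other cells were read beside these results. All 9 macrophage markers passed the floor, with a median of 10.70 with PBS and 10.72 on both other arrays. Single markers differed between intralipid and PBS from -0.66 (Msr1) to 2.10 (Cd14) on the log2 scale. Of 8 fibroblast markers, a cell type that can divide in such cultures, 6 passed. The linear values of all 8 summed to 2363 with PBS, 2351 with intralipid and 2338 after ANGPTL4. No fibroblast marker differed by more than 0.28 between intralipid and PBS. Of 6 measured markers of resident peritoneal macrophages, 5 passed. The linear values of all 6 summed to 833 with PBS, 955 with intralipid and 1249 after ANGPTL4. F10, the highest of them, made up most of each sum and read 9.23, 9.45 and 9.98. The other markers did not rise together. Icam2 read 5.31, 5.17 and 5.01, Gata6 6.49, 6.65 and 6.43, and Timd4 3.65 on each array. Prg4 (5.07 with PBS) and Tgfb2 (5.80) read 5.39 and 6.03 on both other arrays. One marker each passed for mesothelial cells (of 5), neutrophils (of 8), eosinophils (of 3 measured) and dendritic cells (of 5). The summed linear values of the eosinophil markers were 207 with PBS, 183 with intralipid and 207 after ANGPTL4, and the marker past the floor, Siglecf, read 7.51, 7.30 and 7.51. Below the floor, Epx read 3.06, 3.15 and 3.00, and Prg2 4.04 on each array. The summed values of the dendritic cell markers were 82.7, 104 and 81.8, with Clec9a at 3.44, 5.00 and 3.32. Clec9a passed the floor on the intralipid array only. Xcr1, Flt3, Zbtb46 and Cd209a each had 1 value on all arrays, so only Clec9a changed the sum. The part of these markers in the results was not tested. Markers of B cells, of T and NK cells and of mast cells had 0 past the floor. In pooled bulk RNA, fewer cells of a type and less RNA per cell cannot be told apart.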

How the data were processed

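Each group's RNA, a pool of 3 samples, was labelled in a whole-transcript assay and hybridised to 1 Affymetrix array, per the labels' protocols. The authors deposited 1 log2 value per probe set and array, made with RMA per the submitters' processing notes. The RMA version, chip definition and filters are not given in the sources. Depth has no meaning for arrays, and their number limits the precision.

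Of 35556 probe sets, 21789 had 1 gene symbol in GEO's platform annotation, 1621 several and 12146 none. Single-symbol probe sets were used, the one with the highest mean per gene. Differences of the deposited log2 values were taken without further normalization, and a gene was compared where at least 1 array of the pair reached its floor. Genes were counted past 1.5-fold. With 1 array per group no test was run. Named were all 10 members, the 4 genes per related list with the largest difference between intralipid and PBS, and the 3 genes nearest to Rrm1 and Pcna. Of 165 related symbols outside the histones, 7 were not analysed here. The members, lists and thresholds were chosen with earlier results of these data known. Alternatives used limma 3.58.1 in R 4.3.3, and the rest Python 3.11.15 with pandas 2.3.3. The counting code was checked on simulated data with known 2-fold shifts and little noise, which does not test how repeatable the counts are.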

Additional observations from a re-analysis of the deposited data

How the results depend on the processing

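No paired analysis was possible because each group had 1 array. Differences of single members were recomputed with median-centred arrays, quantile normalization, cyclic loess and the mean over probe sets. Of 120 such values, 0 had the opposite sign, and none moved by more than 0.06. Part of this was fixed in advance. Centring shifted all genes alike, by 0.04 or less between arrays. Quantile normalization and cyclic loess were applied to values already made with RMA, so they were a weak check of normalization. The members that were identical between arrays (3, 3 and 4 of 10 in the 3 comparisons) had no sign to reverse. All members but Pcna had 1 probe set, so the mean over probe sets left their values unchanged. The counts depend on the threshold. At 1.2-fold, 1 member was higher and 4 were lower with intralipid than with PBS, where 10.1% and 18% of all genes were. With intralipid plus ANGPTL4, 4 were higher and 1 was lower than with intralipid alone, where 21.5% and 10% of all genes were. Against PBS, 1 was then lower, where 3.76% of all genes were. At 2-fold, no member counted in any comparison (0 lower with intralipid, 0 higher and 0 lower with ANGPTL4). Of all genes, from 0.04% to 2.53% counted in each direction. A floor at the 75th percentile left 4 members. Their medians were -0.49 for intralipid against PBS and 0.50 for intralipid plus ANGPTL4 against intralipid alone. In the latter 0 were lower, since Mcm2 dropped out. Without a floor the member counts were as reported.

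Over all genes, intralipid against PBS gave 509 higher and 560 lower at 1.5-fold, 1015 and 1810 at 1.2-fold, 252 and 133 at 2-fold, and 399 and 359 with the higher floor. Intralipid plus ANGPTL4 against intralipid alone gave 831 higher and 498 lower, 2163 and 1006, and 255 and 231 at the same thresholds. With the higher floor it gave 547 and 387. Intralipid plus ANGPTL4 against PBS gave 237 and 53, 733 and 376, and 85 and 4.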

Other observations

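Several genes that mark entry into S phase did not reach the floor on any array. Of all 19938 genes, 10090 reached it on at least 1 array, so staying below it was common. Of the 24 licensing and firing genes, 9 stayed below it, among them Cdc6, which loads the Mcm ring together with Cdt1 (4.60 on each array), Mcm10 (4.47 on each) and Orc1 (2.48 on each). Gmnn, the inhibitor of Cdt1, was 4.35 with PBS, 3.64 with intralipid and 4.25 after ANGPTL4. Below the floor were also Ccne2 (3.15 on each array) and Ccna2 (4.93, 4.82 and 4.93), cyclins of S phase entry and progression, and 20 of the 33 G2 and mitosis genes.

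With ANGPTL4, the checkpoint kinase gene Bub1b read 6.56, against 5.62 with PBS and 5.43 with intralipid, 2.19-fold above intralipid alone. It was singled out after its values were seen, and no other G2 and mitosis gene past the floor was at least 1.5-fold higher in that comparison. Of all genes compared, 8.26% were at least 1.5-fold higher there.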
